A study of Mus musculus with 9 samples.

Results

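The SLC25 family holds the carriers of the mitochondrial inner membrane, and 40 of the 14444 genes measured in mouse prefrontal cortex had a symbol of the form Slc25a followed by a number. All 40 were kept, whatever their level or change. Total RNA was sequenced after ribosomal RNA depletion in 9 libraries from mice at postnatal weeks 5 to 8. There were 3 groups of 3 libraries: wild type with saline, Shank3 mutants with saline, and Shank3 mutants with UNC0642. Shank3 encodes a scaffold of the excitatory postsynaptic density, and neither the mutant allele nor the sex of the mice was given. UNC0642, an inhibitor of the EHMT1 and EHMT2 enzymes that methylate lysine residues of histone H3, was injected intraperitoneally at 1 mg per kg on each of 3 days. The labels do not say whether a group's libraries are separate animals, so every p-value measures a spread among libraries that could be technical.

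Carriers of this family exchange nucleotides, phosphate, keto acids, amino acids, cofactors and metals between the cytosol and the mitochondrial matrix. Each is built from repeats of a module of paired membrane helices, and several transport steps are served by close paralogs with different tissue preferences. In brain the family supplies cytosolic ATP, carries reducing equivalents in the malate-aspartate shuttle, and moves glutamate into the matrix.

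The deposited values, which the authors named CPM, carry an adjustment between sets of libraries. For every gene their mean log2 value was the same, to within 2.5e-09, in the set made of wild type with UNC0642 replicates 2 and 3 and in the set made of the saline mutants with UNC0642 replicate 1. All wild-type libraries are in one set and all saline mutants in the other, so this step takes up a difference between them before any test. The whole reads behind the values were recovered for 14444 of 14444 genes and came to 12035098 to 16165483 per library. In these recovered reads the first principal component, with 51% of the variance, placed replicate 3 of the UNC0642 group beside wild type and its other replicates beside the saline mutants. Among the saline libraries this division and the genotype cannot be told apart. The library labelled UNC0642 replicate 3 thus stood apart from its group, and a batch, a tissue difference or a mislabelled library cannot be told apart as its source. Reads were scaled to CPM with TMM library factors. Shank3 itself had a recovered CPM of 301, 308 and 348 in wild type, 339.5, 350.4 and 324.5 in saline mutants, and 294, 296 and 316 under UNC0642, so that its reads overlapped between the genotypes. Without the allele, no deleted part could be examined. The cortical marker genes Tbr1, Fezf2 and Cux2 were detected in every library, Tbr1 with a CPM of 161, 149 and 114 in wild type.

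Levels were first compared within the wild-type libraries, as RPKM, the recovered CPM divided by the length of annotated exon in kb. The family spanned a 518-fold range, from Slc25a4 at 219 ± 25.0 (SD, n = 3) to Slc25a47 at 0.422 ± 0.055. Of the 40 members, 16 lay at 10 or more, 20 between 1 and 10, and 4 below 1. The median member stood at 8.28, against 5.61 for the 13869 genes with an exon length, and 24 of 40 members were above that median. The 3 highest members held 49.3% ± 0.69 (SD, n = 3) of the family's summed level per length in wild type, 50.3% ± 0.98 in saline mutants and 49.9% ± 0.96 under UNC0642.

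Carriers of the ATP supply headed the order. Slc25a4, the ADP/ATP carrier ANT1, reached an RPKM of 244, 218 and 194.5 in the 3 wild-type libraries, and Slc25a5, the ADP/ATP carrier ANT2, reached 115, 113 and 98.8. The wild-type ranges of these 2 genes did not overlap. Slc25a23, a calcium-regulated carrier that exchanges ATP-Mg for phosphate, came after them at 91.1 ± 9.31, and its range overlapped that of Slc25a5. Slc25a3, the phosphate carrier that feeds ATP synthase, stood at 55.3 ± 4.37. With exon lengths from the shorter basic annotation Slc25a3 rose to the second place at 158, ahead of Slc25a5 at 145 and Slc25a23 at 144, so the order below Slc25a4 depends on which transcripts are counted as exon. The level of Slc25a5 is also less certain than that of the others, because 33.8% of the 50-base windows in its exons occur in another annotated gene as well, most often in Gm5560 (21.1%); the share was 0% for Slc25a4 and at most 6.99% for any other member.

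Amino acid and keto acid carriers came next. The glutamate carrier Slc25a22 had a wild-type RPKM of 43.0 ± 4.38 and the oxoglutarate carrier Slc25a11, which exchanges malate in the malate-aspartate shuttle, 35.7 ± 4.03 (both SD, n = 3). Slc25a44, a carrier of branched-chain amino acids, stood at 32.9 ± 4.31, and Slc25a18, the second glutamate carrier, known in brain mainly from astrocytes, at 31.0 ± 3.27. The ranges of Slc25a22, Slc25a11, Slc25a44 and Slc25a18 overlapped each with its neighbour in this order. Slc25a14, a brain uncoupling-protein-like carrier, at 19.8 ± 1.39, and Slc25a46, an outer-membrane member tied to mitochondrial dynamics, at 19.6 ± 1.98, completed the 10 highest. Below them, the aspartate/glutamate carrier Slc25a12 at 19.2 ± 2.26 could not be separated by its range from Slc25a46 above or from the NAD carrier Slc25a51 (18.4 ± 1.36) beneath.

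The middle of the order held carriers of many kinds of substrate, with cofactors, metals and nucleotides among them. It ran from Slc25a39 (18.0 ± 0.635), through, among others, the citrate carrier Slc25a1, Slc25a33, Slc25a27, Slc25a16, the peroxisomal Slc25a17, Slc25a25, Slc25a38, Slc25a42, Slc25a28, Slc25a37, Slc25a36, Slc25a29, the dicarboxylate carrier Slc25a10, Slc25a34, the S-adenosylmethionine carrier Slc25a26, the acylcarnitine carrier Slc25a20, the ornithine carrier Slc25a15, Slc25a32, Slc25a40, Slc25a35 and Slc25a45, to Slc25a24 (1.09 ± 0.178). The 4 members below 1 were Slc25a30 (0.969 ± 0.111), Slc25a53 (0.936 ± 0.028), the aspartate/glutamate carrier Slc25a13, also called citrin (0.556 ± 0.090), and Slc25a47, a carrier known mainly from liver. Of the 39 neighbouring pairs in the order, 26 had overlapping wild-type ranges. Precision did not rise steadily with depth. The median coefficient of variation over the wild-type libraries was 11.4% for the 15 members with under 200 reads. It was 8.46% for the 16 with 200 to 1000, and 10.2% for the 9 with 1000 or more.

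**Figure D1:**
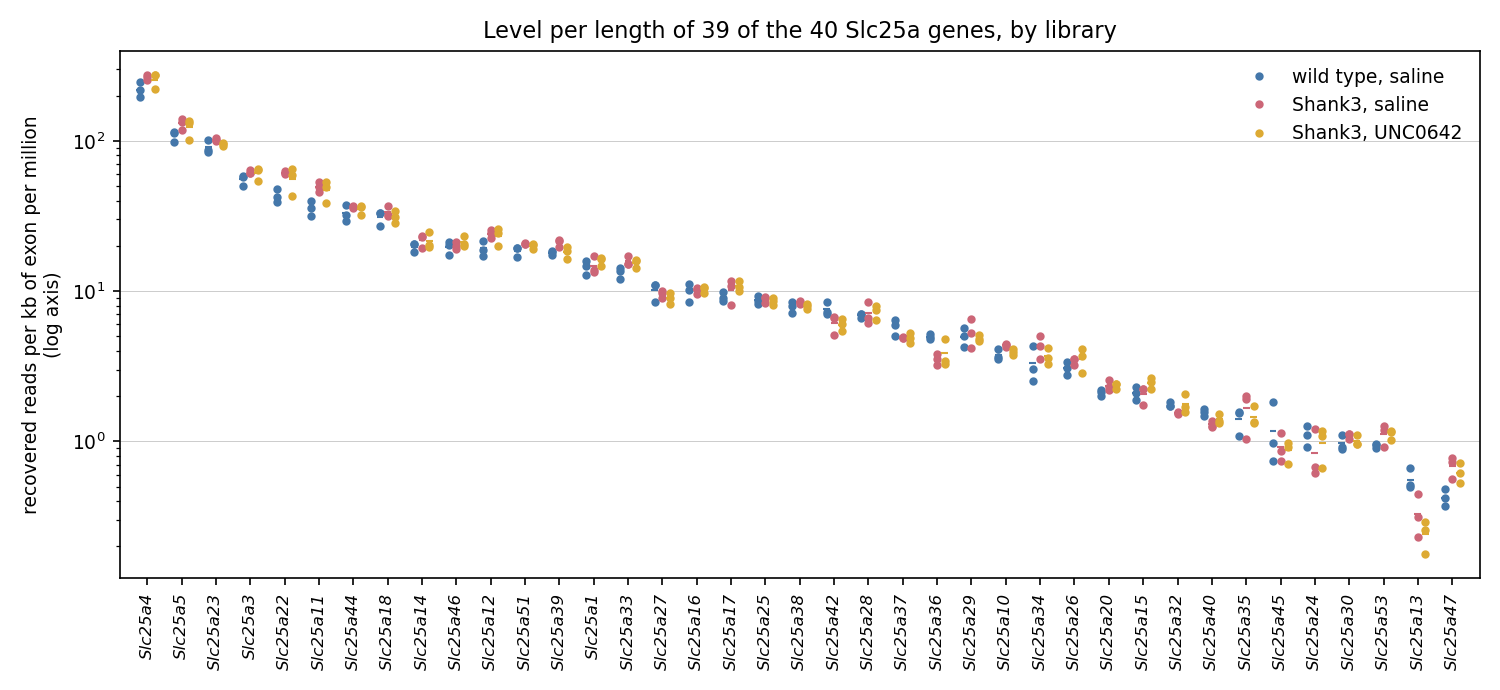
Recovered RPKM (reads per kb of exon, scaled for depth; log axis) for 39 of the 40 Slc25a genes, ordered by their wild-type mean; each point is a library and each short line a group mean (n = 3). The order runs from Slc25a4 at 219 to Slc25a47 at 0.422 in wild type, and the groups shift little against this range.

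Promoter windows of 300 bases, from 250 before to 50 from the annotated start on, were available in RefSeq (GRCm38.p6) for 31 members, with 40 windows in all. Those shown belong to the 2 ADP/ATP carriers, as the pair of highest level, and to Slc25a11 and Slc25a36, which moved in opposite directions in the comparison of saline mutants with wild type described further on. Capitals mark matches, on either strand, to 5 motifs, of which the TATA letters were chosen after the windows had been seen: the TATA box (TATAA), the CCAAT box (CCAAT), the GC box (GGGCGG), an ETS core (CCGGAA) and the core of an NRF1 site (TGCGCA). The windows lie at chr8:46211013-46211312 (minus strand, Slc25a4), chrX:36795347-36795646 (plus strand, Slc25a5), chr11:70646990-70647289 (minus strand, Slc25a11) and chr9:97110992-97111291 (minus strand, Slc25a36), and each is written along its gene's strand.
Slc25a4: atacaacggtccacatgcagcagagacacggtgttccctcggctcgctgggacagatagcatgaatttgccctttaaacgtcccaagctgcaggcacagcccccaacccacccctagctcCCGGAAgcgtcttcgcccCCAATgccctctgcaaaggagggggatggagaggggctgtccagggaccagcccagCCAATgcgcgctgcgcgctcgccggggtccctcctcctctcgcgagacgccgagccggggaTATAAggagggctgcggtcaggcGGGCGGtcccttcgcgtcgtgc
Slc25a5: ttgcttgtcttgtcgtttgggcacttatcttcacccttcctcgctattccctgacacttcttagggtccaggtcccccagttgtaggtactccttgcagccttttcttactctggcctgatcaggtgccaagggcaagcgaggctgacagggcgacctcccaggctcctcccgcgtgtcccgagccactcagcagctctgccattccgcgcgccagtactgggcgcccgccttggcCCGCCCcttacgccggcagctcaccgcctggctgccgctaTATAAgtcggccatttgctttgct
Slc25a11: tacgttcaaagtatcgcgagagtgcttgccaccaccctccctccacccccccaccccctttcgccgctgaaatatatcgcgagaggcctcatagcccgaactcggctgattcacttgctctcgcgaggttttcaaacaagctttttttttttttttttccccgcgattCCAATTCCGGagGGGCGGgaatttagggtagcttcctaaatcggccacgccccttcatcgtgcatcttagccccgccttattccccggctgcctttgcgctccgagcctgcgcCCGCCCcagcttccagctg
Slc25a36: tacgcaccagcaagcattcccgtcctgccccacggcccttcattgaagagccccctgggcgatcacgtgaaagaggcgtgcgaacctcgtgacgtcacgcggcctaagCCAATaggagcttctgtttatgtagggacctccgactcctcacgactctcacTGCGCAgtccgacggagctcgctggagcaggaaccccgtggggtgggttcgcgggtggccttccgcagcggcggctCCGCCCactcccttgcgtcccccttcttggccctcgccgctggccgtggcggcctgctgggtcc

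Both ADP/ATP carrier windows held a TATAA match just past the annotated start, and Slc25a4 alone of the pair held CCAAT matches (2 of them) and an ETS core. The Slc25a11 and Slc25a36 windows shared a CCAAT and a GC box and differed in that Slc25a11 held an ETS core, which overlaps its CCAAT match, while Slc25a36 held the NRF1 core. Over the 40 windows of members, the GC box was present in 87.5%, against 35.7% of all 32851 windows of the table. CCAAT was present in 52.5% against 37.4%, the ETS core in 27.5% against 14.9%, TATAA in 10% against 24.9%, and the NRF1 core in 5% against 7.76%. These are letter matches only, some windows belong to the same gene, and base composition was not matched.

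The choice between paralogs was read from 10 pairs that carry like substrates, as the log2 ratio of their levels per length within a library. Slc25a4 exceeded Slc25a5 by log2 ratios of 1.09, 0.95 and 0.98 in wild type, 1.00, 1.10 and 0.97 in saline mutants and 1.01, 1.06 and 1.12 under UNC0642, or about 2.01-fold in wild type. The 3 groups overlapped. The mean difference between saline mutants and wild type was 0.02, and the exact two-sided permutation p was 0.6. The 2 coding sequences were 78.6% identical, the highest identity among the 10 pairs, and no member shared a 50-base window with another member.

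Other pairs were strongly one-sided. Slc25a12 (aralar) made up 97.1% ± 0.7 (SD, n = 3) of the aspartate/glutamate pair in wild type, Slc25a39 made up 92.0% ± 0.5 of the glutathione carriers over Slc25a40, Slc25a23 made up 91.3% ± 0.9 of its pair with the ATP-Mg/phosphate carrier Slc25a25, and Slc25a11 made up 90.4% ± 1.3 of its pair with the dicarboxylate carrier Slc25a10. The mitoferrins Slc25a28 and Slc25a37, which import iron, were nearly even with these exon lengths, with 54.3% ± 3.6 for Slc25a28. For the glutamate carriers, 58.1% ± 4.9 was Slc25a22 and the rest Slc25a18. Slc25a14 held 66.2% ± 4.4 of its pair with Slc25a27 (the uncoupling-protein-like carriers UCP5 and UCP4), and Slc25a42 held 43.4% ± 5.6 of the coenzyme A carriers, with Slc25a16 as its partner. In the pyrimidine nucleotide pair Slc25a36 was the lesser gene, with 27.3% ± 2.0 against Slc25a33. These shares depend on which transcripts are counted as exon. With the shorter basic annotation the mean wild-type log2 ratio of Slc25a28 to Slc25a37 went from 0.25 to 1.01. That of Slc25a22 to Slc25a18 went from 0.47 to 1.53, and that of Slc25a36 to Slc25a33 from -1.42 to -0.56. The greater gene of each of these pairs stayed the same.

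Across the groups, the wild-type and saline mutant libraries did not overlap for 3 of the 10 ratios. The log2 ratio of Slc25a36 to Slc25a33 was -1.57, -1.40 and -1.28 in wild type and -2.27, -1.99 and -2.24 in saline mutants, a mean difference of -0.75. Under UNC0642 it was -2.27 and -2.23 in replicates 1 and 2 and -1.56 in replicate 3, so that replicate 3 fell at the lower edge of the wild-type range. The ratio of Slc25a39 to Slc25a40 was 3.65, 3.47 and 3.47 in wild type, 4.09, 4.01 and 3.97 in saline mutants, and 3.90, 3.75 and 3.43 under UNC0642, where replicate 3 was the lowest and lay just under the wild-type range. The ratio of Slc25a12 to Slc25a13 was 5.40, 5.25 and 4.70 in wild type, 6.71, 6.17 and 5.84 in saline mutants and 6.64, 7.09 and 6.08 under UNC0642; here replicate 3 lay inside the saline mutant range. That ratio rests on 11 to 32 reads of Slc25a13 per library.

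With 3 libraries against 3, the smallest two-sided exact permutation p is 0.1, which these 3 ratios had, and over the 30 tests (10 pairs, 3 comparisons) the smallest Benjamini-Hochberg adjusted value was 0.545. No paralog ratio could therefore pass at 0.05 whatever its values, so these tests cannot decide whether a ratio differed. In the other comparisons, Slc25a39 to Slc25a40 was lower in every UNC0642 library than in every saline mutant (mean difference -0.33), and Slc25a12 to Slc25a13 was higher in every UNC0642 library than in every wild-type library (1.49), both also at the smallest p. The mean differences between saline mutants and wild type were smaller in the deposited values: -0.16 for Slc25a36 to Slc25a33, 0.06 for Slc25a39 to Slc25a40 and 0.42 for Slc25a12 to Slc25a13. For Slc25a22 to Slc25a18 the difference was 0.41 in the recovered reads and -0.01 in the deposited values, and for Slc25a14 to Slc25a27 it was 0.21 and -0.05. Because the deposited values are equalised between the sets that hold these groups, the small negative values show no reversal of direction.

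**Figure D2:**
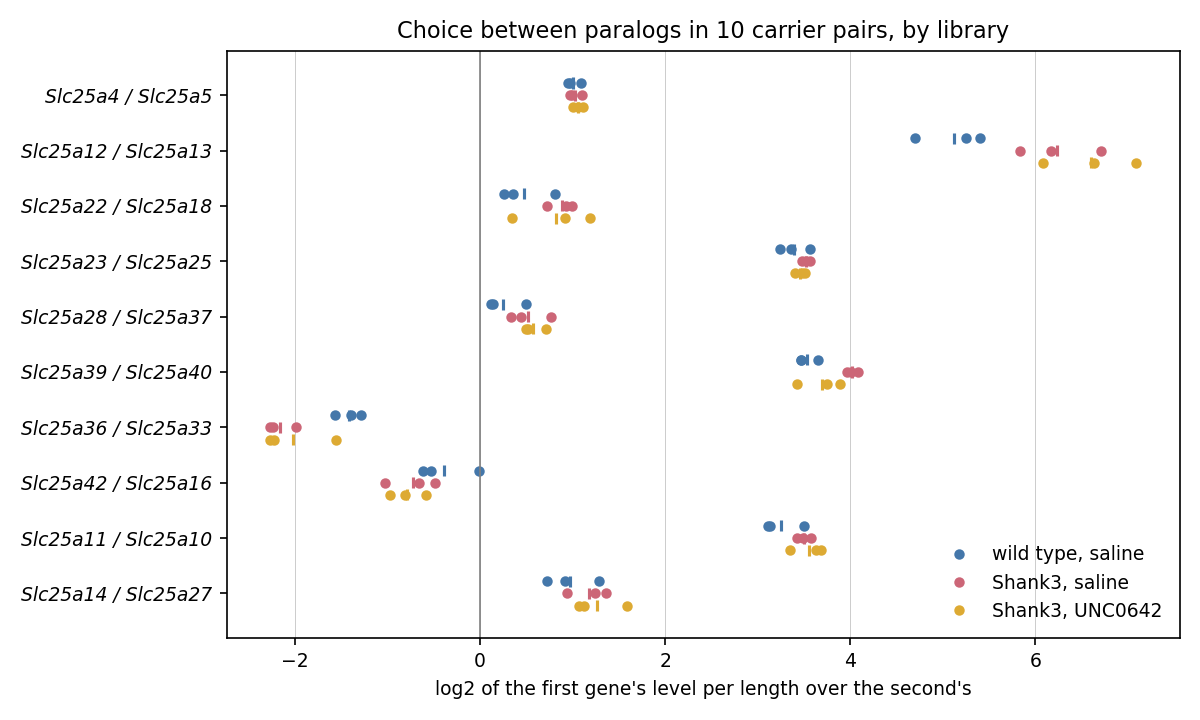
Log2 ratio of the levels per length of the paralogs in 10 pairs; each point is a library, each short line a group mean (n = 3), and 0 marks equal levels. The Slc25a4 to Slc25a5 ratio stays near 1 in all 9 libraries, while wild type and saline mutants are apart for Slc25a12 to Slc25a13, Slc25a39 to Slc25a40 and Slc25a36 to Slc25a33.

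The comparison of saline mutants with wild type asks how the mutation bears on these carriers. In the deposited values none of the 40 members was called at an adjusted p under 0.05 by limma, nor was any other gene (0% of 14444; 19 genes and 0 members had an unadjusted p under 0.05). Because the deposited values are equalised between the sets that hold these groups, this count says nothing about whether the members differed. The median log2 difference was 0.02 over the members and 0.00 over all genes, on the log2(value + 0.5) scale. The 10 members of smallest p were Slc25a13 (-0.28, SE 0.24), Slc25a11 (0.14, SE 0.12), Slc25a42 (-0.13), Slc25a32 (-0.14), Slc25a24 (-0.22), Slc25a37 (-0.09), Slc25a18 (0.09), Slc25a36 (-0.09), Slc25a33 (0.07) and Slc25a22 (0.07, SE 0.10), all with an adjusted p of 1.0.

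In the recovered reads the family took a larger share of each saline mutant library. The members took 0.299% to 0.308% of all reads in wild type, 0.341% to 0.347% in saline mutants, and 0.352% down to 0.303% under UNC0642, where replicate 3 was the lowest. The glutamate carrier Slc25a22 and the oxoglutarate carrier Slc25a11 were higher and the pyrimidine nucleotide carrier Slc25a36 was lower in saline mutants by limma-voom with all 9 libraries, which fits log2 CPM with a prior of 0.5 reads and called 3 of 40 members (7.5%) against 12.4% of all genes. In the separate directions, 2 of 40 members were called higher, against 5.71% of all genes, and 1 of 40 was called lower, against 6.71%. The members' share of calls was below that of all genes in this fit, but not in every fit (12.5% against 12.2% without wild-type replicate 1). With so few members called it is not read as a trait of the family. Of the members 30 of 40 had a positive difference against 50.4% of all genes, with medians of 0.14 and 0.00.

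Slc25a22 had a recovered CPM of 286, 253 and 235 in wild type and 362, 365 and 378.5 in saline mutants. Every saline mutant library was above every wild-type library, and the difference was 0.52 on the log2 scale (SE 0.13, 1.43-fold, adjusted p 0.0241). Under UNC0642 the values were 389.8, 352 and 259, so that replicates 1 and 2 were with the saline mutants and replicate 3 inside the wild-type range.

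Slc25a11 had a CPM of 84.5, 75.1 and 67.5 in wild type, 97.0, 104.5 and 113 in saline mutants and 104, 112 and 81.3 under UNC0642. The saline mutants again stood above wild type, by 0.47 (SE 0.12, 1.39-fold, adjusted p 0.0293), and UNC0642 replicate 3 was inside the wild-type range. Slc25a36 had 45.8, 49.8 and 47.3 in wild type, 33.9, 36.6 and 30.8 in saline mutants and 31.5, 33.0 and 46.2 under UNC0642. Here the order was turned, with a log2 difference of -0.50 (SE 0.13, 0.708-fold, adjusted p 0.0315), and UNC0642 replicate 3 once more lay inside the wild-type range.

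These calls rest on each saline library in turn except wild-type replicate 1. Without wild-type replicate 2 or 3, or without any single saline mutant library, 0 members were called, while 14 to 484 genes were. Slc25a22 then had adjusted p-values up to 0.1, Slc25a11 up to 0.107 and Slc25a36 up to 0.12, and their log2 differences over the 9 fits ran from 0.45 to 0.60, 0.39 to 0.55 and -0.56 to -0.43. Without wild-type replicate 1 the count was 5 members (12.5%) against 12.2% of all genes, and without UNC0642 replicate 3 it was 8 members (20%) against 25.1% of all genes. With the saline libraries alone 6 members were called (15%) against 21.9% of all genes: Slc25a22, Slc25a36, Slc25a11, Slc25a12, Slc25a4 and Slc25a5. A fit with the division as a term cannot settle these calls: the division was read from the same reads, equals the genotype in the saline libraries, and leaves the contrast to rest on how UNC0642 replicate 3 differs from its group.

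Among members that were not called with all 9 libraries, the ADP/ATP carrier Slc25a4 had a CPM of 575, 514 and 458 in wild type, 626, 598 and 648 in saline mutants and 642, 647 and 517 under UNC0642. Its saline mutant libraries were all above wild type, with a difference of 0.28 (SE 0.10, adjusted p 0.0798). Slc25a5 had 189, 186 and 163 in wild type and 219, 195 and 232 in saline mutants, a difference of 0.26 (SE 0.11, adjusted p 0.123). The aspartate/glutamate carrier Slc25a12 had 159, 138 and 126 in wild type and 178, 165 and 187 in saline mutants, a difference of 0.33 (SE 0.11, adjusted p 0.0603). For both Slc25a5 and Slc25a12 the groups did not overlap either.

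At low depth, Slc25a13 had 23, 25 and 32 reads in wild type, 11, 18 and 24 in saline mutants and 12, 11 and 17 under UNC0642, with a log2 difference between saline mutants and wild type of -0.76 (SE 0.34, adjusted p 0.135). Slc25a47 went the other way on 13 to 35 reads, at 0.69 (SE 0.31, adjusted p 0.140). Counting error alone is large at such depth, and neither difference passed the test.

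Without regard to any test, 13 members (32.5%) were higher in every saline mutant than in every wild-type library, against 20.8% of all genes, and 6 members (15%) were lower, against 19.8%. The higher ones included Slc25a3, Slc25a4, Slc25a5, Slc25a10, Slc25a11, Slc25a12, Slc25a20, Slc25a22, Slc25a33, Slc25a39, Slc25a47 and Slc25a51, and the lower ones Slc25a13, Slc25a32, Slc25a36, Slc25a37, Slc25a40 and Slc25a42. UNC0642 replicate 3 was nearer to the wild-type mean than to the saline mutant mean for 16 of these 19 members (84.2%), against 78.5% of all genes without overlap. The corresponding counts were 2 of 19 for replicate 1 (15.1% of all such genes) and 1 of 19 for replicate 2 (17.0%). The 3 members for which replicate 3 was nearer to the saline mutants were Slc25a13, Slc25a37 and Slc25a42. Slc25a42, a coenzyme A carrier, had a CPM of 43.7, 42.4 and 50.4 in wild type, 39.5, 40.5 and 30.8 in saline mutants and 35.9, 32.6 and 38.8 under UNC0642.

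**Figure D3:**
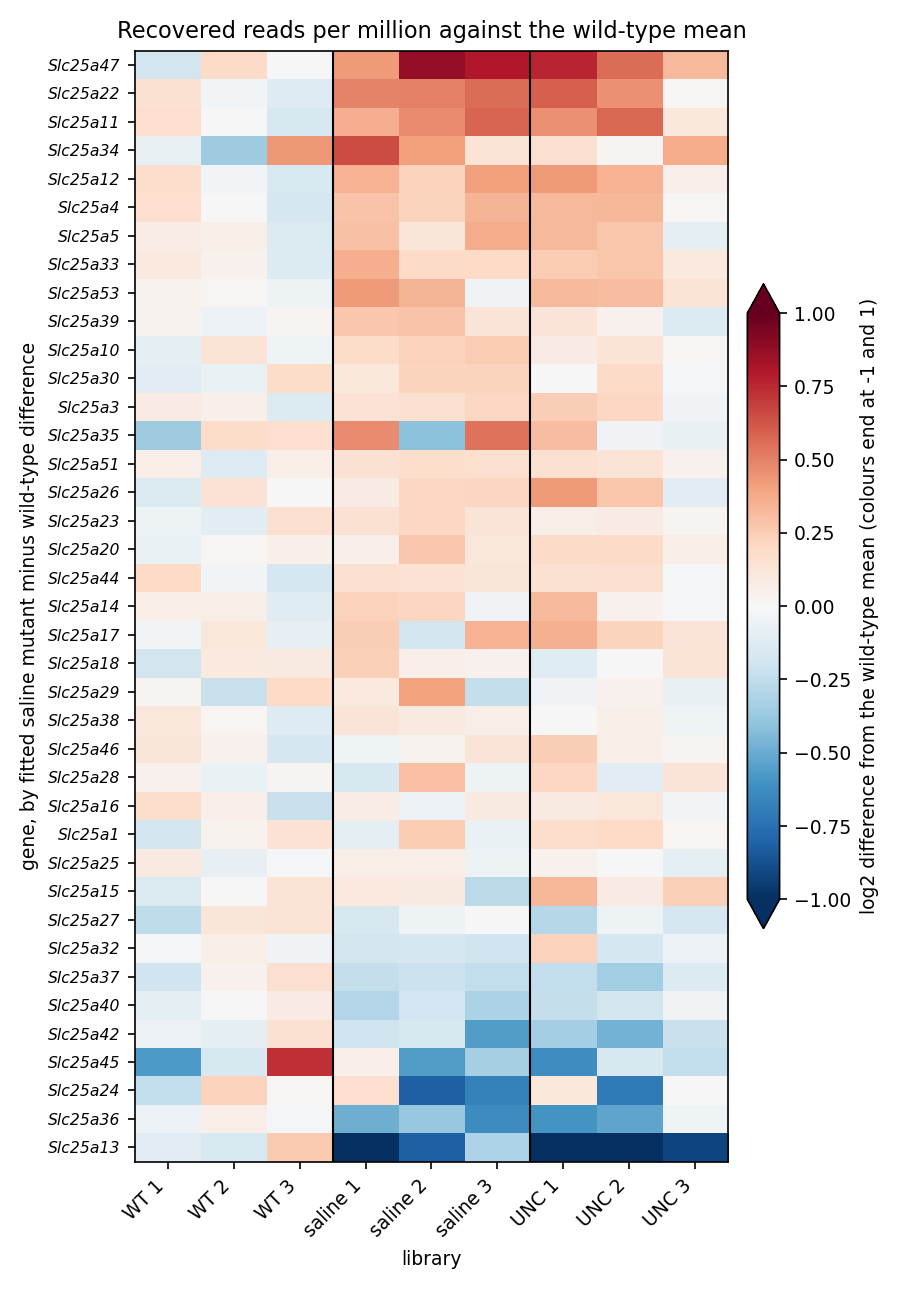
Log2 difference of each library's recovered CPM from the wild-type mean, for 39 of the 40 members (rows, ordered by the fitted difference of saline mutants from wild type) and the 9 libraries (columns); red is higher and blue lower, and colours end at -1 and 1. UNC0642 replicate 3 is nearer to wild type for 16 of the 19 members, 1 of them not drawn, whose saline groups do not overlap.

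Of the cell type marker sums, that of astrocytes was lower in saline mutants and in UNC0642 replicates 1 and 2 than in wild type and UNC0642 replicate 3. The 6 astrocyte markers summed to a CPM of 4685 to 6059 in wild type and 3721 to 4126 in saline mutants, and to 3348, 3639 and 5966 in UNC0642 replicates 1, 2 and 3. Most of that sum was Slc1a2, at 3508, 3434 and 4367 in wild type and 2572, 2916 and 2699 in saline mutants. Aqp4 and Slc1a3 were also lower without overlap, while Gfap, Aldh1l1 and Gja1 overlapped between the genotypes. None of the astrocyte markers was called. The 6 endothelial and mural markers summed to 193 to 236 in wild type, 137 to 176 in saline mutants and 157, 159.9 and 181 under UNC0642, where replicate 3 was below every wild-type library. Of these, the pericyte marker Rgs5 (-0.57, SE 0.11) and the endothelial receptor Flt1 (-0.67, SE 0.16) were called lower in saline mutants. Sums of the 6 oligodendrocyte markers (2912 to 4689 and 1480 to 3388), the 4 precursor markers (203 to 291 and 169 to 204), the 6 neuronal markers (5372 to 7441 and 6662 to 7432) and the 6 microglial markers (279 to 391 and 265 to 309) overlapped between wild type and saline mutants, as did those of fibroblast, cortical and striatal genes and the single erythroid and choroid plexus gene measured. By gene, the negative direction was not particular to astrocytes. Of the oligodendrocyte markers 0 of 6 were positive (median -0.68), of the precursor markers 0 of 4 (-0.33) and of the microglial markers 1 of 6 (-0.18). Astrocyte markers had 1 of 6 positive (-0.22) and endothelial and mural markers 1 of 6 (-0.37), while 6 of 6 fibroblast markers were positive (0.46). Among the lists with overlapping sums, the precursor marker Gpr17 was called lower (-0.60, SE 0.16). Gad1, the glutamate decarboxylase of inhibitory neurons, had a CPM of 314, 301 and 322 in wild type, 243, 250.4 and 244 in saline mutants and 231, 246 and 307 under UNC0642, and was called lower in saline mutants (-0.35, SE 0.10, adjusted p 0.0351). Its companion Gad2 did not overlap between the genotypes either (-0.25, SE 0.13, adjusted p 0.213), and UNC0642 replicate 3 was inside the wild-type range for Gad1 and above it for Gad2. The other 4 neuronal markers were positive, and the median over all 6 was 0.10. Among them Slc17a7 went the other way without overlap, at 1805, 1538 and 1356 in wild type and 1895, 1810 and 1862 in saline mutants, and was not called. No marker measured was at 0 in every library. The part of these cell types in the carrier differences was not tested, and in bulk tissue fewer cells of a type and less RNA per cell cannot be told apart.

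**Figure D4:**
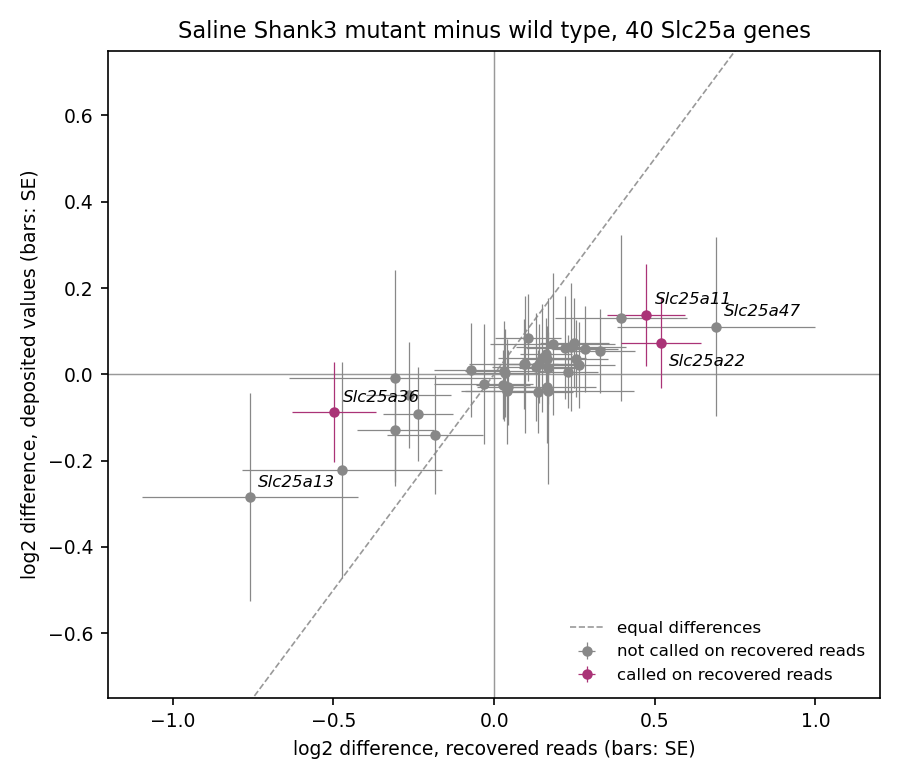
Log2 difference between saline mutants and wild type in the deposited values (vertical) against the recovered reads (horizontal) for the 40 members, with SE bars from the limma fits and a dashed line of equal differences. Slc25a22, at 0.52 in the recovered reads, stands at 0.07 in the deposited values, and Slc25a36, at -0.50, stands at -0.09.

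The comparison of UNC0642 with saline in mutants asks whether EHMT inhibition altered the carriers. In the deposited values, where the equalising also touches this contrast, 0 members and 0% of all genes were called by limma (281 genes and 0 members at an unadjusted p under 0.05), with a median log2 difference of 0.05 over the members and 0.00 over all genes. Slc25a13 (-0.41, SE 0.24), the ornithine carrier Slc25a15 (0.23, SE 0.14), the peroxisomal Slc25a17 (0.17, SE 0.12), Slc25a36 (-0.16, SE 0.12) and Slc25a46 (0.12, SE 0.09) had the smallest p, with an adjusted p of 1.0. They were followed by Slc25a27 (-0.15), Slc25a12 (0.13), Slc25a22 (0.13), Slc25a42 (-0.15) and Slc25a26 (0.16).

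In the recovered reads with all 9 libraries, 0 members and 0% of all genes were called as well (539 genes and 1 member at an unadjusted p under 0.05). Of the members 12 were positive and 28 negative, against 49% positive over all genes, with medians of -0.04 and 0.00. The 1 member was the glutathione carrier Slc25a39, at -0.22 (SE 0.09, adjusted p 0.971). Slc25a22 stood at -0.16 (SE 0.12) here, against 0.13 in the deposited values, which are equalised between sets that split the UNC0642 group. With UNC0642 replicate 3 left out, its difference in the recovered reads was 0.01 (SE 0.09). Neither sign is therefore read as a direction.

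The same question was put to libraries on 1 side of the division, with UNC0642 replicates 1 and 2 against the 3 saline mutants. Again 0 members and 0% of all genes were called (860 genes and 0 members at an unadjusted p under 0.05), 20 members were positive and 20 negative, and the median was 0.00 over the members and over all genes. For the members called between saline mutants and wild type the differences with their 95% intervals were 0.00 for Slc25a22 (-0.11 to 0.12), 0.05 for Slc25a11 (-0.11 to 0.21) and -0.06 for Slc25a36 (-0.28 to 0.16). Slc25a4 differed by 0.05 (-0.05 to 0.15) and Slc25a5 by 0.04 (-0.11 to 0.18). The UNC0642 libraries of this fit were kept because the same reads placed them beside the saline mutants, so for genes that follow the division a value near 0 is in part the result of that choice.

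Slc25a23 had the smallest p among the members in this fit. Its CPM was 534, 554 and 527 in saline mutants and 501 and 508 in UNC0642 replicates 1 and 2, so that the groups did not overlap, but the difference of -0.09 (SE 0.05, adjusted p 0.855) did not pass the test. Slc25a39 (-0.15, SE 0.08), the glutamate carrier Slc25a18 (-0.15, SE 0.09), Slc25a34 (-0.31, SE 0.18), Slc25a46 (0.11, SE 0.07), the S-adenosylmethionine carrier Slc25a26 (0.17, SE 0.12), Slc25a15 (0.22, SE 0.16), the citrate carrier Slc25a1 (0.15, SE 0.11), Slc25a13 (-0.59, SE 0.48) and Slc25a17 (0.15, SE 0.14) followed. For Slc25a15, 12.6, 12.5 and 9.8 CPM in saline mutants stood against 14.8 and 12.5, and the groups overlapped.

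Mutants given UNC0642 were also set against wild type given saline, a comparison that changes genotype and treatment together and shares its libraries with the other 2. In the deposited values 0 members and 0% of all genes were called (1238 genes at an unadjusted p under 0.05). The equalising touches this contrast as well, because UNC0642 replicate 1 is in the set of the saline mutants. The members with an unadjusted p under 0.05 were Slc25a13 (-0.69, SE 0.24), Slc25a42 (-0.28, SE 0.12), Slc25a11 (0.27, SE 0.12) and Slc25a36 (-0.25, SE 0.12), with adjusted p-values of 0.576 to 0.581. Slc25a22 (0.21), Slc25a12 (0.18), the mitoferrin Slc25a37 (-0.19), Slc25a17 (0.19), Slc25a15 (0.21) and Slc25a4 (0.15) came next.

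In the recovered reads with all 9 libraries 0 members were called in that comparison, against 0.0762% of all genes (11 genes). Without UNC0642 replicate 3 the count was 8 members (20%), against 20.5% of all genes: Slc25a22 (0.53), Slc25a36 (-0.56), Slc25a11 (0.52), Slc25a12 (0.39), Slc25a4 (0.33), Slc25a5 (0.30), Slc25a42 (-0.41) and Slc25a13 (-1.35). The members' share equalled that of all genes within 1 percentage point, and the whole count rests on leaving that library out. The library was left out because the same reads placed it beside wild type, so the count is in part the result of that choice.

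Genes that work beside the carriers were listed by function and read in the recovered reads for saline mutants against wild type, where the median of all genes was 0.00, 50.4% of all genes were positive, 5.71% were called higher and 6.71% lower. Of the 4 measured carrier-like genes outside the symbol rule (Mtch1, Mtch2, Ucp2 and Ucp3), Mtch1, an outer-membrane carrier homologue, was higher, with a CPM of 381, 336 and 329 in wild type and 471, 469 and 451 in saline mutants (0.41, SE 0.09, adjusted p 0.0209), and the median of the list was 0.27. The uncoupling protein Ucp2 differed by 0.00 (SE 0.19).

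The machinery that brings carriers through the outer membrane and into the inner one had 13 of 14 measured genes positive, with a median of 0.24, and 3 were called higher and 0 lower: the receptor subunit Tomm22 (0.50, SE 0.12) and the small intermembrane chaperones Timm8b (0.46, SE 0.13) and Timm10 (0.56, SE 0.17). The insertase Timm22, which places carriers in the inner membrane, was not called (0.32, SE 0.12, adjusted p 0.0951). Of the ATP synthase genes and its inhibitor, 16 of 16 were positive with a median of 0.29, and 7 were called higher, among them Atp5k (0.36, SE 0.08), Atpif1 (0.46, SE 0.11), Atp5d (0.42, SE 0.11) and Atp5g2 (0.34, SE 0.09).

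The 6 enzymes of the malate-aspartate and glycerophosphate shuttles had a median of 0.21. Those of the malate-aspartate shuttle work with Slc25a11 and Slc25a12. Of the 6, Mdh2 alone was called, and was higher (0.43, SE 0.12, adjusted p 0.0399). Its CPM was 262, 222 and 194 in wild type, 312, 287 and 311.5 in saline mutants, and 306, 312 and 228 under UNC0642, where replicate 3 was again inside the wild-type range. Of 21 genes of the TCA cycle, 18 were positive with a median of 0.12, and Idh3g (0.59, SE 0.16) and Sdhc (0.30, SE 0.08) were called higher. Of 20 other transporters of both membranes, 14 were positive with a median of 0.12, 0 were called higher and 1 was called lower. Of 11 measured regulators of mitochondrial biogenesis 9 were negative, with a median of -0.11, and the coactivator gene Pprc1 alone was called (-0.41, SE 0.12, adjusted p 0.0404), while Ppargc1a (-0.27, SE 0.10) was not. In the 5-library comparison of UNC0642 with saline no gene of these lists was called.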

How the data were processed

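Trizol-extracted RNA was made into stranded, ribosomal RNA-depleted libraries, per the labels' protocols. The submitters' processing notes name the mm9 build and the tools cutadapt, TopHat2 and HTSeq, without versions; how strand was counted is not given in the sources used here. Each deposited value is a signal per gene, named CPM by the authors; 9 of 9 single-library files equalled the matrix. Whole reads were recovered gene by gene, from the offset of the library sets that turns the 9 values into whole numbers (tolerance 0.02 reads; 0 reads has a value of 0.2187). The design had taken the values to be a normalized signal, and log2(value + 0.5) of all 14444 genes was fitted in limma 3.58.1 under R 4.3.3, with an intensity trend, 9 libraries, group as the single term, no filter, and p-values adjusted by Benjamini-Hochberg. Recovered reads were fitted with limma-voom and TMM factors, in all 9 libraries or in 5 (UNC0642 replicates 1 and 2 and the saline mutants), and recovered CPM and RPKM use the same factors. The step was tested on simulated data. Fold changes on the log2(value + 0.5) scale understate the change of low genes.

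Levels per length use exon lengths of GENCODE M21, and promoter windows are those of RefSeq on GRCm38.p6; no other coordinates are given because mm9 was the files' build. Paralog ratios were tested by exact two-sided permutation over libraries. The members, pairs, lists, alternatives and the 5-library comparison were chosen with earlier results of these data known. Named members are those called, the 10 of smallest p in each comparison, the 10 highest and 5 lowest per length, the paralog pairs, and up to 4 genes of smallest p of each other list; the rest, including the insertase Timm22 and Ucp2, were named after their values were seen. Depth was 11 to 10529 reads per member and library, and intervals cover the spread between libraries. A further 7 Slc25a symbols of GENCODE M21 were not among the rows and were not analysed here. Some genes of the family and the other lists are counted but not reported by name here. Tables, tests and plots were made in Python 3.11.15 with biopython 1.88, scipy 1.17.1, pandas 2.3.3, matplotlib 3.10.9 and numpy 2.4.6.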

Additional observations from a re-analysis of the deposited data

How the results depend on the processing

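In the deposited values, 0 members were called in each of the 3 comparisons with pseudocounts of 0.1 and 1, a filter on low values, only the 2 groups compared, an adjusted p under 0.1 and without each library in turn (0 to 0 members). The recovered reads changed this: for saline mutants against wild type, limma-voom called 3 members (7.5%, against 12.4% of all genes), also with median-of-ratios and with upper-quartile factors (3 each), and 6 with the saline libraries alone (15% against 21.9%). Without each library in turn that count ran from 0 to 8, the latter being 20% against 25.1% of all genes. For UNC0642 against wild type it was 8 without UNC0642 replicate 3 (20% against 20.5%). With the division of the libraries as a term it was 0 in every comparison, which is no sign of stability, since the term was read from the same reads and equals the genotype among the saline libraries. The same holds for the counts of 0 for saline mutants against wild type in the deposited values, which are equalised between the sets that hold these groups. The equalising also touches the deposited counts of the comparisons with UNC0642, whose libraries are split between the sets. In the 5-library comparison of UNC0642 with saline, 0 members were called under every scaling, filter and fit tried and without each library in turn. Fits on recovered reads with 2 groups only, with a library left out or with other factors were added after seeing the data.

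The replicate numbers did not pair the libraries: correlations of same-numbered deviations ran from -0.192 to 0.327 in the deposited values. With the replicate block 0 members were called in each comparison; in the 5-library comparison it was fitted on replicates 1 and 2 of each group, which called 130 genes with the block and 2 without it, none of them a member.

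Of the paralog differences, 232 alternatives moved by less than the spread between libraries and 8 by more, all of these in the deposited values. Of the 10 highest levels, 8 moved by more than that spread with the shorter basic annotation. At 11 reads, the lowest member count, the depth could not show differences of the size found for Slc25a22.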
